A study of Mus musculus with 2 samples.

Results

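The nuclear-encoded genes of oxidative phosphorylation were examined in native RNA from mouse retinal organoids, to describe how strongly their transcripts carry N6-methyladenosine (m6A) and whether they differ in this from other genes. Members were chosen by gene name: names starting with Nduf, Uqcr, Atp5 or Cox followed by a digit from 4 to 8, together with Cyc1 and the Sdh genes a to d. In all, 69 of 8262 named genes in the deposited tables met the rule, 60 in replicate 1 and 62 in replicate 2. They held 203 of 57784 listed positions. A RefSeq list for GRCm38.p6 holds 97 protein-coding genes whose symbols meet the rule, and all 69 members were found among them. The other 28, such as Ndufs3, Sdhc, Sdhd, Cox5b and Cox8a, were not listed here at any coverage.

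The study sampled day 6 of differentiation: 2 libraries were made from organoids of the line Rx:GFP (genotype WT), treated with AGN at 0.1 µM for 6 days. They form 1 group with n = 2. Retinal organoids are tissue aggregates grown from pluripotent stem cells. In this line green fluorescent protein marks cells that use Rx, also written Rax, which the forming eye needs. Poly(A) RNA was sequenced directly on nanopores with the RNA002 kit, on 1 flow cell per library for about 48 h. Both libraries came from 1 line and carry 1 batch label, and nothing states whether they came from separate cultures, so the spread between them may be technical. There was no second condition, and no contrast between conditions was made. Of 11 eye-field and retinal progenitor genes, 10 were listed in each replicate, and 7 had a position with at least 20 reads in both. None of 7 pluripotency genes, 4 genes of mesoderm and endoderm or 4 muscle and heart genes was listed in either. A gene that is not listed is not thereby shown to be unexpressed.

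Oxidative phosphorylation takes place in the inner mitochondrial membrane. Complex I (NADH dehydrogenase) and complex II (succinate dehydrogenase) pass electrons to ubiquinone, complex III passes them to cytochrome c, and complex IV passes them to oxygen. The proton gradient this builds drives complex V, the ATP synthase. Most subunits are encoded in the nucleus by short, abundant mRNAs. m6A is the most frequent internal base modification of mRNA. It is written by a complex whose catalytic subunit is METTL3, within the context known as DRACH, in which the central A is preceded by a purine and followed by C, and it is known to affect how long an mRNA lasts and how well it is translated.

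Each row of the tables gives a transcript, a position counted from the transcript's start, a motif of 5 bases, the coverage (reads over the position) and the fraction modified, which runs from 0 to 1. All listed positions lay on 4 motifs, which are written here in DNA letters and belong to DRACH. Each is shown at a member site with a higher fraction and at one with a lower fraction for that motif, to show that the 5 letters alone did not set the level. The capital letter is the central A, the base that is methylated in this context. The tables do not say which base of the motif the position marks.
Ndufa9 position 646, higher: ggAca
Ndufa10 position 831, lower: ggAca
Atp5o position 779, higher: agAct
Ndufaf2 position 190, lower: agAct
Cox7a2l position 411, higher: ggAct
Cox7a2l position 706, lower: ggAct
Ndufa12 position 571, higher: ggAcc
Cox6a1 position 440, lower: ggAcc

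Members were covered more deeply than other genes. Median coverage over the listed positions of members was 44 reads in replicate 1 and 51 reads in replicate 2, against 10 and 12 reads for other genes. A site was a listed position with at least 20 reads, and 96 member positions in replicate 1 (70.1% of 137) and 117 in replicate 2 (70.1% of 167) qualified. At this minimum 79 sites were shared by both replicates, in 43 member genes. A further 18 genes reached 20 reads in at least 1 replicate without a shared site, which makes 61 with a site in either, and 8 genes stayed below 20 reads everywhere. Of the genes with a shared site, 20 belong to complex I, 1 is a complex I assembly factor, 2 belong to complex II, 5 to complex III, 6 to complex IV and 9 to complex V. Ndufa4 was counted with complex IV, where its protein is now placed despite its name.

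The 4 motifs carried different levels in the members. At the 29 shared GGACA sites of 19 member genes, the median fraction was 0.865 ± 0.0107 (SD, n = 2). It was 0.397 ± 0.00643 at 7 AGACT sites, 0.277 ± 0.0124 at 17 GGACT sites and 0.187 ± 0.000247 at 26 GGACC sites (each SD, n = 2). The GGACA median lay above every other in both replicates, and did so in other genes too. Their medians, as means of both replicates, were 0.677, 0.258, 0.258 and 0.222 in the same order of motifs. GGACC was more frequent among member sites than among those of other genes, at 32.9% against 22.02%, and AGACT less frequent, at 8.86% against 15.8%. These shares were not tested.

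Set against all other genes, members had higher medians at GGACA. The other 1958 GGACA sites had a median of 0.688 in replicate 1 and 0.667 in replicate 2, where the members' medians were 0.857 and 0.872. The difference, members minus other genes, was 0.188 ± 0.0255 (SD, n = 2), larger than the spread between replicates. That spread holds no variation among genes or sites, since both libraries measured the same sites. The quartiles of the other genes' GGACA sites were 0.378 and 0.906 in replicate 1, and the members' were 0.535 and 0.955, so the sets overlap widely. At AGACT it was 0.139 ± 0.0182, over 7 member sites and 805 others. At GGACT the difference was 0.0186 ± 0.000636 and at GGACC -0.0350 ± 0.00916 (each SD, n = 2). The exact paired permutation test over replicates, two-sided, gave p = 0.5 for each of the 4 motifs, the smallest value that 2 replicates allow.

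The size of the GGACA difference depends on how sites are summarised. With 1 value per gene it was 0.120, and with means in place of medians it was 0.0901. With 1 transcript per gene it was 0.167 (0.136 in replicate 1 and 0.197 in replicate 2). It kept its direction when both sets were limited to sites with at least 100 reads (0.239) or to transcripts whose last listed position was under 1000 nt (0.164, from 0.105 in replicate 1 and 0.223 in replicate 2). At AGACT the difference ranged more widely: it was 0.0652 with means (0.0991 in replicate 1 and 0.0313 in replicate 2), 0.254 with assembly and supercomplex factors left out, 0.266 with at least 100 reads and 0.271 with at least 50. Only 7 member sites lie behind it. At GGACC the sign turned with means (0.0211) and on those shorter transcripts (0.0801), so no direction is given for that motif. With all sites of each replicate, shared or not, the replicates gave opposite signs at AGACT, 0.102 in replicate 1 and -0.0549 in replicate 2. They did so at GGACT too, with 0.0480 and -0.0273, and without a minimum coverage, with -0.02775 and 0.02995. Means gave 0.0538 at GGACT.

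**Figure D1:**
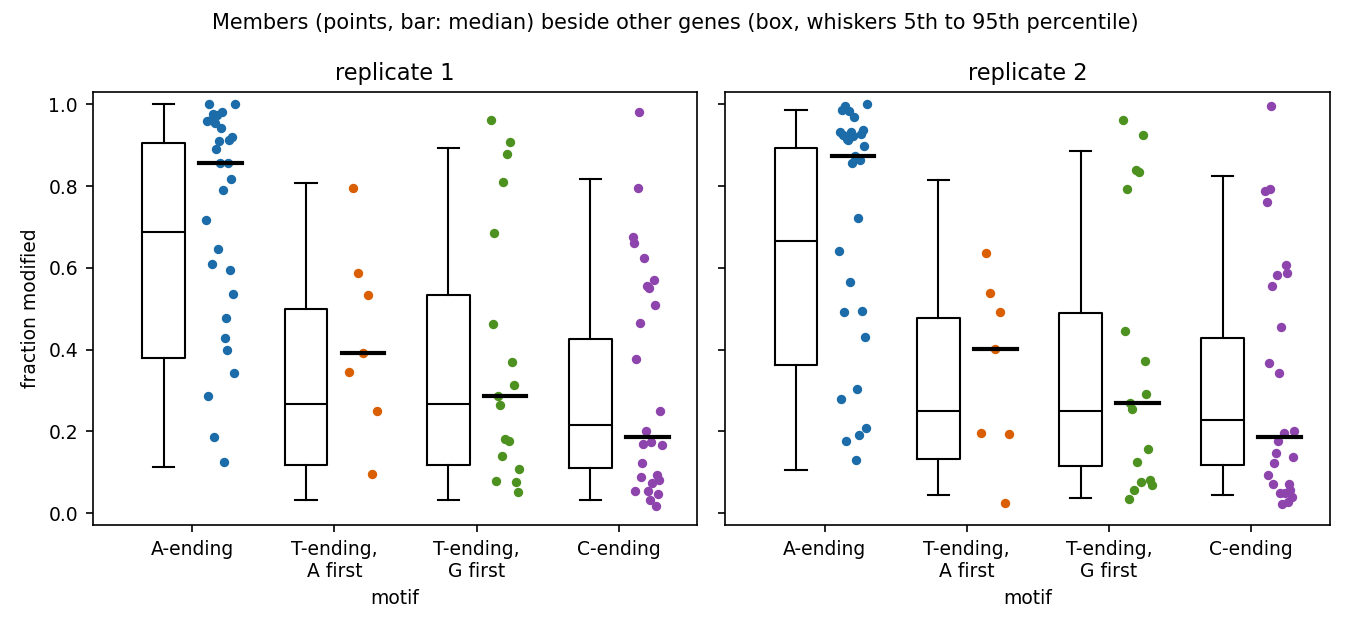
Fraction modified (vertical axis, 0 to 1) by motif in each replicate, with boxes for other genes (median, quartiles, whiskers at the 5th and 95th percentile) and points for each shared member site, with a bar at the member median. Motifs are named by their last or opening base: the A-ending motif is GGACA, the C-ending GGACC, and the T-ending motifs are AGACT and GGACT. Member points at the A-ending motif crowd above 0.8, with a median of 0.857 in replicate 1 and 0.872 in replicate 2.

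High sites were counted as those with a fraction of at least 0.8 in both replicates. Among all 5221 shared sites of the series, 17.1% met this. Of the 79 member sites, 21 did, a share of 26.6% (95% Wilson interval 18.1% to 37.2%, which covers counting error only and treats sites of 1 gene as independent), against 17.003% of other genes' sites (16.0% to 18.1%). Of these 21 sites, 16 were GGACA (of 29, with 35.2% of all GGACA sites called), 4 were GGACT (of 17, with 8.37%), 1 was GGACC (of 26, with 4.65%) and none was AGACT (of 7, with 3.8%). At the other end, 22 member sites had a fraction under 0.2 in both replicates, 27.8% of the 79, close to the 25.3% found over all sites. Members thus spread over the whole scale, from 0.0222 at Uqcrh to 1 at Ndufa9 (mean of both replicates).

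Medians by complex ran from 0.116 to 0.586, and differences between them were not tested. The median over shared sites was 0.586 ± 0.0482 in complex V (20 sites), 0.530 ± 0.00926 in complex II (10 sites) and 0.503 ± 0.0682 in complex I (31 sites). It was 0.277 ± 0.0124 in complex IV (9 sites), 0.180 ± 0.0181 at the 3 sites of the assembly factor Ndufaf2, and 0.116 ± 0.0585 in complex III (6 sites) (each SD, n = 2). The value of complex III rests on replicates that differed widely, 0.157 in replicate 1 and 0.0742 in replicate 2. Complex V had the highest median in each replicate, by a margin close to the spread between replicates, and complexes I and II changed order between replicates. With a minimum of 50 reads complex I stood above complex V in both replicates, with medians of 0.633 and 0.554, so no order of these complexes is given. Since motif shares differ between complexes, each site was also set against the median of other genes at its own motif. On that scale the median site lay 0.222 and 0.226 above in complex II, 0.170 and 0.193 above in complex V, 0.102 and 0.114 above in complex I, 0.0190 and 0.0181 above in complex IV, and at -0.127 and -0.183 in complex III (replicate 1 and 2 in each case). The 5 subunit sites within complex IV, without those of Cox7a2l, lay as low as complex III, at -0.159 and -0.178. All 6 sites of complex III and all 3 of Ndufaf2 lay below the median of their motif in both replicates, while 41 of all 79 member sites lay above it and 33 below it. No test between complexes was made, because sites of 1 gene can share reads.

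**Figure D2:**
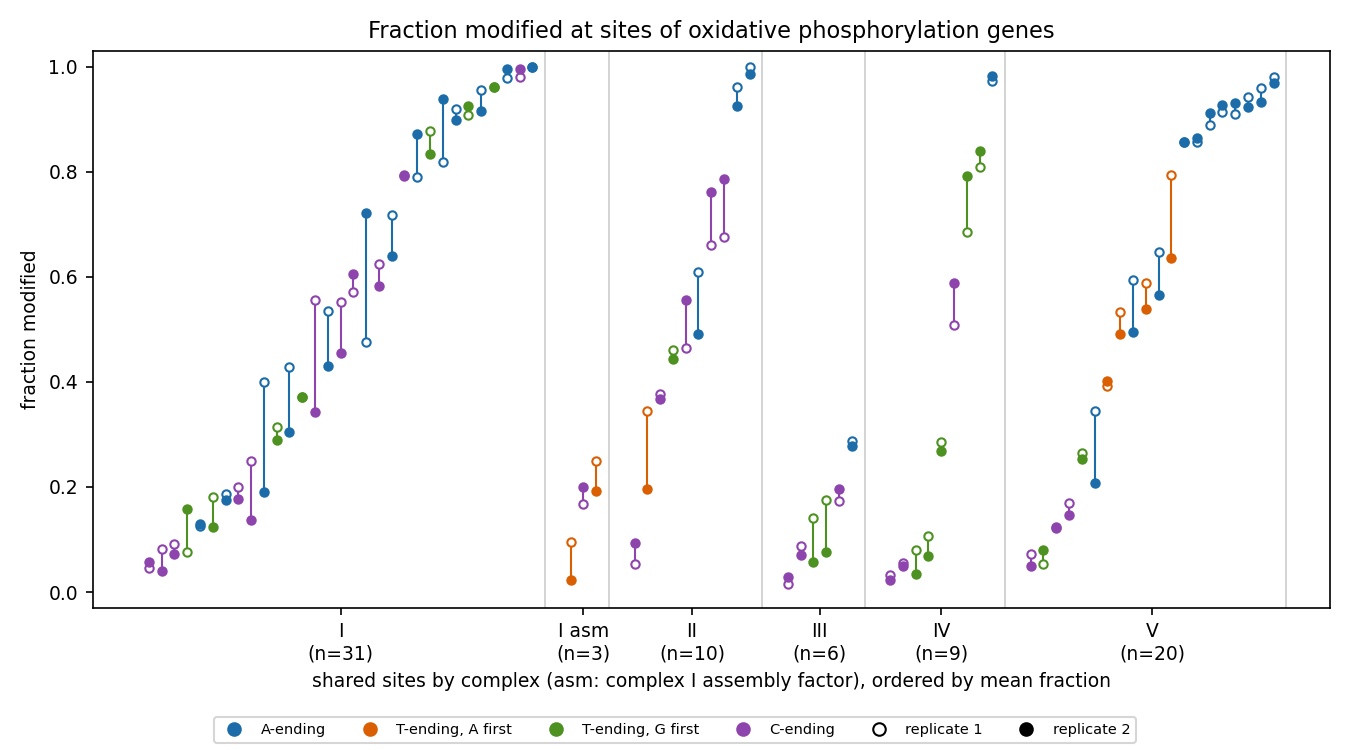
Fraction modified (vertical axis) at each of the 79 shared member sites, grouped by complex and ordered by mean fraction along the horizontal axis, with open circles for replicate 1, filled circles for replicate 2 and colours for the motif. Complex III lacks any site above 0.3, whereas complexes I, II, IV and V reach from under 0.1 to above 0.9.

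In complex I, the core subunits that carry the electron path held 7 shared sites in 5 genes, with a median of 0.559 ± 0.0339 (SD, n = 2). Ndufs1, the largest iron-sulfur subunit, had 0.625 and 0.583 over 33 and 52 reads at position 2442 (GGACC). Ndufv2, an iron-sulfur subunit of the NADH-oxidising module, had 0.535 and 0.430 over 240 and 356 reads at position 873 (GGACA).

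The remaining core sites included 2 of the 3 at which the replicates differed by more than 0.2. Ndufv1, which binds the flavin that accepts electrons from NADH, had 0.476 with 33 reads in replicate 1 and 0.722 with 56 in replicate 2 at position 1626, a difference of 0.246. At its other GGACA, position 1120, the values were 0.429 and 0.304 over 35 and 57 reads. Position 1626 was higher than position 1120 by 0.0476 in replicate 1 and by 0.418 in replicate 2, so this gap is poorly fixed. Ndufs8, another iron-sulfur subunit, had 0.400 over 53 reads and 0.191 over 96 reads at position 312 (GGACA).

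The accessory subunits of complex I, which surround the core, held 24 shared sites in 15 genes, with a median of 0.483 ± 0.0990 (SD, n = 2). The replicates ordered the roles differently, with core and accessory medians of 0.535 and 0.553 in replicate 1 and 0.583 and 0.413 in replicate 2. Set against other genes at the same motif, the median core site lay at -0.152 and -0.0267, and the median accessory site at 0.117 and 0.164 (replicate 1 and 2). Several sites had a fraction close to 1. Ndufa9 (chromosome 6, 126798684 to 126826099) had a fraction of 1 in both replicates at position 646 (GGACA), over 58 and 113 reads. Ndufb9 (chromosome 15, 58805605 to 58811337) had 0.977 and 0.995 over 148 and 218 reads at position 133 (GGACA). Ndufb4 had 0.955 and 0.915 over 229 and 308 reads at position 424, also GGACA. Ndufb2 had 0.920 and 0.899 over 92 and 121 reads at position 319 of one transcript, and 0.818 and 0.938 over 25 and 35 reads at position 310 of another.

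High accessory sites were found outside GGACA as well. Ndufa12 (chromosome 10, 94034582 to 94057305) had 0.980 over 159 reads and 0.996 over 236 reads at position 571 (GGACC), above 99.2% of the GGACC sites of other genes. Ndufa2 had 0.961 in both replicates over 207 and 286 reads at position 384 (GGACT), above 98.2% of other GGACT sites. Ndufa7 (chromosome 17, 34043546 to 34057291) had 0.907 and 0.926 over 204 and 295 reads at position 446 (GGACT). Ndufc1 had 0.878 and 0.833 over 170 and 204 reads at position 194 (GGACT). These 4 sites, with the GGACT of Cox4i1 described with complex IV, are all 5 member sites of at least 0.8 in both replicates that were not GGACA.

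Intermediate accessory sites followed. Ndufa7 also had 0.570 and 0.606 at position 143 (GGACC), over 205 and 303 reads. Ndufb7 had 0.551 and 0.455 over 61 and 123 reads at position 585 (GGACC), and 0.180 and 0.124 over 62 and 125 reads at position 412 (GGACT). Ndufs5 had 0.556 over 43 reads and 0.342 over 68 reads at position 70 (GGACC), one of the largest gaps between replicates. Ndufab1, the mitochondrial acyl carrier protein, had 0.314 and 0.290 at position 532 (GGACT) and 0.0924 and 0.0719 at position 371 (GGACC), with 155 reads in replicate 1 and 206 and 207 in replicate 2. Ndufa8 had 0.370 and 0.372 over 44 and 71 reads at position 424 (GGACT).

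Some accessory sites were low in both libraries although well covered. Ndufb5 had 4 shared sites, all at or below 0.25. Those at positions 239 and 591, both GGACC, had 0.0465 and 0.0564 over 157 and 236 reads, and 0.0815 and 0.0394 over 164 and 246 reads. At its other sites coverage was only 22 reads in replicate 1 and 29 in replicate 2, and the values were 0.0769 and 0.158 at position 989 and 0.250 and 0.136 at position 1047. Ndufa6 was low at a GGACA, with 0.187 and 0.175 over 171 and 274 reads at position 374, and exceeded only 9.86% of other genes' GGACA sites. Ndufa10 was lower still at position 831, as described with the pairs of sites, and had 0.20 and 0.177 over 28 and 78 reads at position 678 (GGACC).

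Complex I assembly factors, which build the complex and are not part of it, were sparsely covered. Of 8 listed genes 6 had a site in replicate 2 and only Ndufaf2 had one in replicate 1. Its shared sites had 0.167 and 0.20 at position 134 (GGACC), 0.0952 and 0.0238 at position 190 (AGACT), and 0.250 and 0.192 at position 298 (AGACT), with 21 to 23 reads in replicate 1 and 51 to 52 in replicate 2. The other 5 with a site in replicate 2 were Ndufaf3, Ndufaf4, Ndufaf5, Ndufaf6 and Ndufaf8, each with at most 35 reads.

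In complex II, which oxidises succinate, only Sdha and Sdhb were listed. Sdha, the flavoprotein subunit (chromosome 13, 74470373 to 74498399), had 6 shared sites, the most on a single member transcript. Its GGACA sites at positions 598 and 659 had 1 and 0.985 over 29 and 71 reads, and 0.962 and 0.925 over 30 and 71 reads. A further GGACA at position 1909 had 0.609 and 0.491 over 43 and 91 reads, below both of the former in each replicate. Its other shared sites had 0.464 and 0.556 at position 2089 (GGACC), 0.345 and 0.196 at position 2238 (AGACT) and 0.462 and 0.444 at position 2742 (GGACT), with 21 to 45 reads in replicate 1 and 31 to 97 in replicate 2. In replicate 1 alone, GGACA sites at positions 423 and 1965 had 0.160 and 0.156 over 28 and 43 reads.

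Sdhb, the iron-sulfur subunit (chromosome 4, 140688514 to 140706504), had 4 shared sites of 1 motif, GGACC. Positions 352 and 416 had 0.676 and 0.787 over 112 and 188 reads, and 0.660 and 0.761 over 112 and 190 reads, above 92.2% and 91.9% of other genes' GGACC sites. Position 568 had 0.0538 and 0.0938 over 115 and 194 reads. Position 916 had 0.378 and 0.367 over 125 and 206 reads. The order of high, low and intermediate sites along the transcript was the same in both libraries.

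In complex III, which passes electrons to cytochrome c, all 6 shared sites were low. The highest was a GGACA of Uqcrb at position 328, with 0.287 and 0.279 over 194 and 293 reads, above only 17.2% of other GGACA sites. The Rieske iron-sulfur protein gene Uqcrfs1 had 0.174 and 0.196 over 93 and 196 reads at position 706 (GGACC) and 0.175 and 0.0769 over 102 and 199 reads at position 950 (GGACT). Uqcrc2, a core protein, had 0.140 and 0.0565 over 67 and 159 reads at position 333 (GGACT).
Cytochrome c1, encoded by Cyc1, had 0.0886 and 0.0714 over 85 and 154 reads at position 359 (GGACC). Uqcrh, the hinge protein (chromosome 4, 115924162 to 115932268), had the lowest mean of any shared member site, with 0.0161 over 330 reads and 0.0283 over 457 reads at position 333 (GGACC). In replicate 1 alone, Uqcr10 had 0.75 over 22 reads at position 454 (AGACT) and was the only site of the complex above 0.5.

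In complex IV, cytochrome c oxidase, subunit sites ranged from 0.0277 to 0.824 in their mean fraction. Cox4i1, a regulatory subunit (chromosome 8, 121394961 to 121400946), had 0.809 over 325 reads and 0.838 over 585 reads at position 618 (GGACT), and Cox6b1 had 0.508 and 0.588 over 368 and 544 reads at position 460 (GGACC). By contrast, Cox6a1 had 0.0323 and 0.0230 over 243 and 388 reads at position 440 (GGACC), and Cox7a2 had 0.0547 and 0.0498 over 374 and 531 reads at position 265 (GGACC). Ndufa4 had 0.107 and 0.0692 over 514 and 758 reads at position 331 (GGACT). The median of these 5 subunit sites was 0.0883 ± 0.0269 (SD, n = 2). It lies far below the 0.277 of the complex because Cox7a2l, counted with the complex, held the other 4 sites.

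Cox7a2l joins complexes III and IV into supercomplexes (chromosome 17, 83809347 to 83824759). It had a GGACA at position 792 with 0.973 and 0.983 over 193 and 301 reads. Its 3 GGACT sites had 0.686 and 0.792 at position 411, 0.0791 and 0.0336 at position 706, and 0.286 and 0.268 at position 1046, each over 187 to 192 reads in replicate 1 and 298 to 303 in replicate 2. Positions 411 and 706 share all 5 bases and lie 295 nt apart, yet position 706 minus position 411 was -0.606 in replicate 1 and -0.758 in replicate 2.

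In complex V, the α and β subunits, which form the catalytic head of the ATP synthase, were covered deeply. Atp5a1 (α, chromosome 18, 77861429 to 77870569) had 3 GGACA sites on its main transcript, with 0.857 and 0.856 at position 723, 0.943 and 0.922 at position 1496, and 0.981 and 0.968 at position 2175, over 186 to 296 reads in replicate 1 and 383 to 605 in replicate 2. Its AGACT at position 969 had 0.533 and 0.492, and its GGACC at position 1029 had 0.169 and 0.146. The 5 sites of this transcript thus fell in the order of the motif medians.
Atp5b (β, chromosome 10, 127919142 to 127926260) had 0.909 and 0.931 at position 865 but 0.647 and 0.565 at position 330, both GGACA, with 382 and 767 reads at the former and 346 and 697 at the latter. An AGACT only 7 nt beyond the latter, at position 337, had 0.392 and 0.401. Its GGACT at position 1260 had 0.265 and 0.253 over 424 and 820 reads, and its GGACC at position 773 had 0.122 and 0.123 over 374 and 752 reads.

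Among the smaller subunits, GGACA sites were high in some genes and low in others. Atp5e (ε subunit) had 0.959 and 0.933 over 285 and 385 reads at position 360. Atp5j (coupling factor 6) had 0.889 and 0.912 over 315 and 431 reads at position 530, and 0.857 and 0.864 over 26 and 32 reads at position 463 of another transcript. Atp5pb, the b subunit of the stalk, had 0.594 and 0.494 over 197 and 365 reads at position 657. Atp5j2 (f subunit) had 0.344 and 0.208 over 125 and 176 reads at position 533, above only 16.8% of other GGACA sites.
At other motifs, Atp5o, which joins the stalk to the catalytic head, had 0.588 and 0.539 over 327 and 504 reads at position 779 (AGACT). Atp5j had 0.794 and 0.636 over 44 and 49 reads at position 223 (AGACT). The low end was held by Atp5l (g subunit), with 0.0729 and 0.0502 over 404 and 561 reads at position 443 (GGACC), and by Atp5g1 (c subunit of the ring), with 0.0526 and 0.0800 over 20 and 27 reads at position 379 (GGACT).

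**Figure D3:**
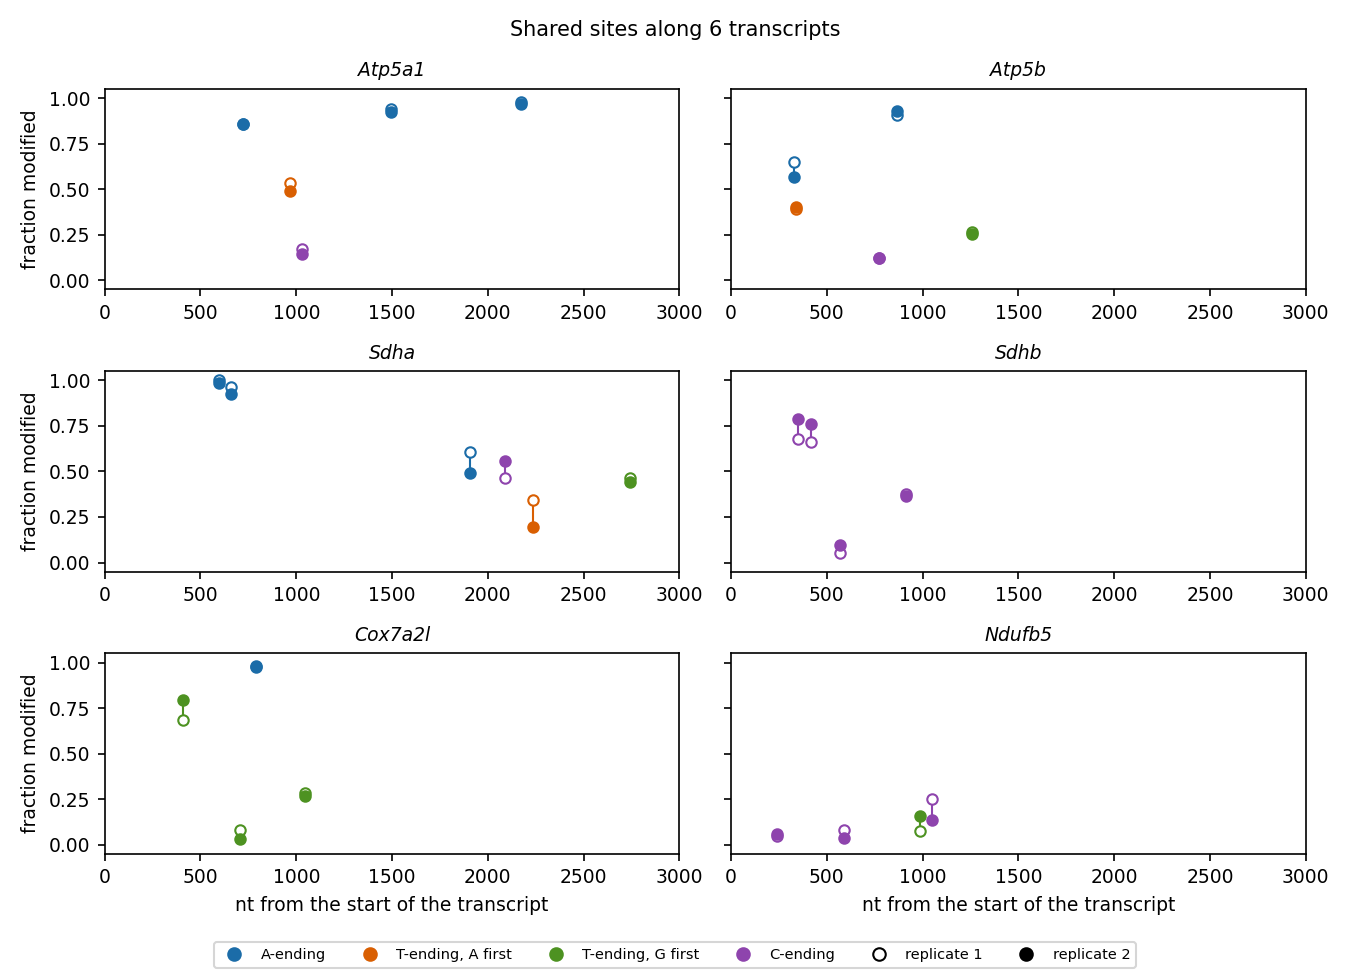
Fraction modified (vertical axis) at shared sites against the distance in nt from the start of the transcript (horizontal axis) for 6 member transcripts, with open circles for replicate 1, filled circles for replicate 2 and colours for the motif. In Sdhb all 4 sites carry the C-ending motif and range from 0.0538 to 0.787, and in Cox7a2l the 3 sites of the G-first, T-ending motif range from 0.0336 to 0.792.

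Sites of the same motif on the same transcript were then compared, since they share gene and library, though reads need not span both. Members gave 22 such pairs in 9 genes. In 7 pairs, from Sdhb, Sdha, Cox7a2l and Ndufa10, the sites differed by more than 0.3 in the same direction in both replicates, against 34.3% of all 2049 such pairs in the series. The members' share, 7 of 22, is near the background. In Ndufa10 the GGACA at position 586 had 0.790 and 0.872 over 29 and 78 reads and that at position 831 had 0.125 and 0.130 over 28 and 80 reads, so that position 831 minus position 586 was -0.665 and -0.743. The 7 pairs come from 4 transcripts and are not independent.

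Some members were listed on more than 1 transcript. In Atp5a1, 5 positions of one transcript recurred on another with the same motif and a constant offset of 206 nt, and in Cox7a2l 4 positions recurred at an offset of 69 nt. Position 1702 (GGACA) of the second Atp5a1 transcript, for example, had 0.913 and 0.927 over 25 and 53 reads, where position 1496 of the first had 0.943 and 0.922. Whether these are the same RNA sites, seen through reads given to different isoforms, was not tested. At the 7 recurring positions of these 2 genes with at least 20 reads on both transcripts in replicate 2, the median absolute difference was 0.0252 and the highest 0.0942.

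The spread between the libraries is the only error measured here, and an error common to both would not show in it. Over the 79 shared member sites, the SD of the difference (replicate 2 minus replicate 1) was 0.0726 and its median -0.0125. This difference was positive for 30 of them and negative for 48. Other genes leaned the same way, with 2335 positive and 2668 negative differences among 5099 and a median of -0.0043. The lean is thus not particular to members, and its size was not tested between the sets. For the member sites, Pearson's r was 0.978 and Spearman's rho 0.974, as a description, since sites share libraries and motif levels. Of the 79 sites, 3 differed by more than 0.2, namely those of Ndufv1, Ndufs5 and Ndufs8 given above. This is 3.80%, against 5.94% of all shared sites. At 47 member sites with at least 100 reads in both, the SD was 0.0511 and none differed by more than 0.2, and at 689 sites of other genes of that depth the SD was 0.0486. The next largest gaps were at Atp5j position 223 and Sdha position 2238 (-0.158 and -0.149). At the coverage minimum itself, the median absolute difference between replicates was 0.0577 at 7 member sites with a lower coverage of 20 to 24 reads and 0.0802 at 9 positions with 15 to 19 reads, the latter not counted as sites.

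Members also differed from other genes in how the reads fell. Transcripts of members with a shared site had their last listed position at a median of 520.5 nt, against 1369 nt for other genes, and 67.4% of the 46 held a single shared site, against 37.0% of 2037. Among transcripts whose deepest shared site had 200 or more reads in replicate 1, members held a mean of 1.63 shared sites and other genes 2.06. Transcript length was not used here, so sites per length cannot be given.

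The depth ratio between libraries was lower in members over all transcripts. Coverage in replicate 2 was a median of 1.53 times that in replicate 1 over 46 member transcripts (interquartile range 1.39 to 1.81) and 1.94 times over 2037 others (1.63 to 2.35). In other genes the ratio was higher the farther along the last listed position lay, and members did not stand below them in every class. From 600 nt to below 1000 nt the ratio was 1.80 for 9 members and 1.75 for 384 others, and from 1000 nt to below 2000 nt it was 1.66 for 5 members and 1.98 for 766 others. On transcripts whose last listed position was under 600 nt it was 1.44 for 28 members and 1.58 for 286 others, and at 2000 nt or more it was 2.08 for 4 members and 2.30 for 601 others. A single scale factor therefore does not make coverage comparable between the libraries. The cause was not tested.

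**Figure D4:**
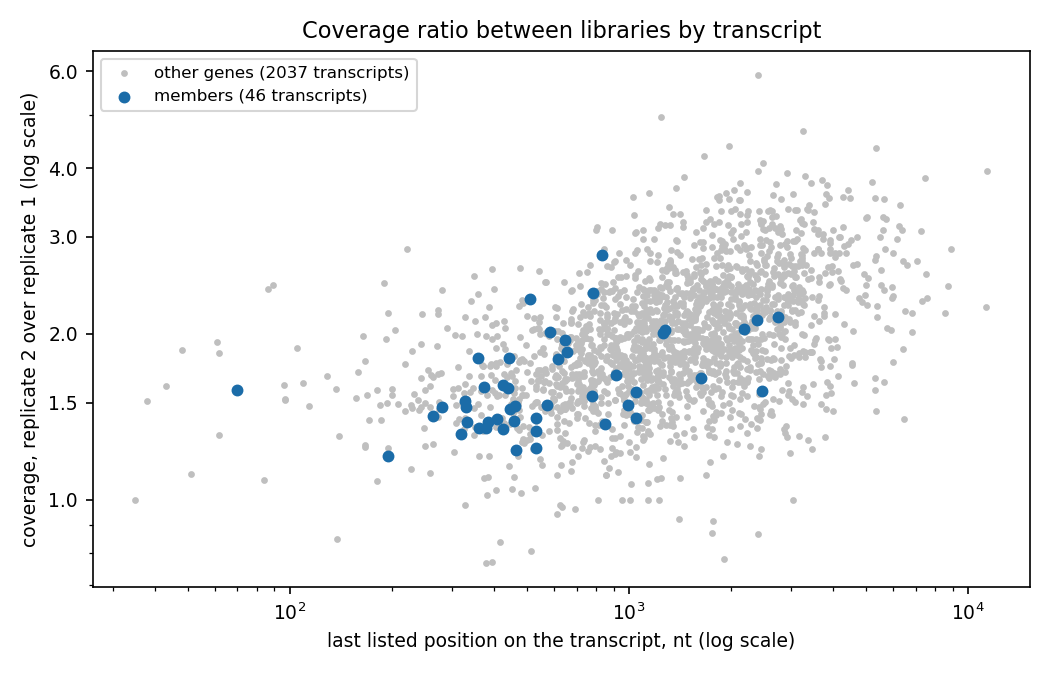
Coverage of replicate 2 over replicate 1 (vertical axis, log scale, median over the shared sites of each transcript) against the last listed position on the transcript in nt (horizontal axis, log scale), for 46 member transcripts (blue) and 2037 transcripts of other genes (grey). Most members lie at short positions and low ratios, with a median ratio of 1.53 against 1.94.

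Several well covered member positions were listed in 1 library only. With at least 100 reads in replicate 1, 8 of 55 member positions were not listed in replicate 2, and 12.2% of all such positions in the series were not. With at least 100 reads in replicate 2, 8 of 62 were not listed in replicate 1, against 11.1% over all. Both shares of members, 14.5% and 12.9%, are near the background. In replicate 1 alone, Ndufs6 had 0.890 over 123 reads at position 384 (GGACA), Ndufc2 had 0.490 over 202 reads at position 321 (GGACA), and Cox5a had 0.115 over 241 reads at position 389 (GGACC). In replicate 2 alone, Ndufb8 had 0.0607 over 348 reads at position 318 (GGACC), Atp5k had 0.223 over 207 reads at position 84 (GGACA), and Atp5l had 0.233 over 558 reads at position 458 (GGACT), 15 nt from its shared site. A member gene without a listed position is therefore not shown to lack the motif, the reads or the modification.

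Other genes of the pathway were set beside the members. Of 41 electron carriers and assembly factors outside the name rule, 9 had 19 shared sites. Their mean fractions ran from 0.033 at position 2392 of Sdhaf1 (AGACT) to 0.99 at Etfb. Their median was 0.375 in replicate 1 and 0.250 in replicate 2, against 0.476 and 0.444 for all member sites, with motifs not matched. Cytochrome c itself (Cycs) had 0.918 and 0.924 over 242 and 361 reads at position 562 (GGACA) and 0.184 and 0.203 over 67 and 127 reads at position 678 (GGACT). Etfb, a subunit of the electron transfer flavoprotein, had 0.980 and 1 over 55 and 91 reads at position 539 (GGACA). Of the regulators of mitochondrial genes, Tfam had 4 shared sites, with mean fractions from 0.194 to 0.461, and Yy1 had 4, from 0.551 to 0.828. Mitochondrial-encoded subunits were far deeper: mt-Nd1 had 0.118 and 0.124 over 3605 and 5653 reads at position 733 (GGACC), and mt-Co1 had 0.294 and 0.283 over 3007 and 6386 reads at position 1326 (AGACT). No control RNA free of m6A was analysed here, so the level that the caller gives at an unmodified A is unknown. Whether that level differs between motifs is unknown too, so fractions and motif differences are given as values only.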

How the data were processed

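Direct RNA libraries of 2 samples were sequenced by the authors, per the labels' protocols. Per the file headers, coverage is a read count at each position, and no position under 5 reads is listed. Values of modification were deposited as a fraction (0 to 1) whose denominator is not given: within 0.0001, 14.6% and 22.2% of the members' values are whole multiples of 1 over the coverage. No read counts were therefore derived. Base caller, aligner and modification caller are not given in the sources used here. The build mm10 is named in the submitters' processing notes, yet only 2 of 69 member genes start within 1000 bases of their start in RefSeq's GRCm38.p6, so gene coordinates are printed as deposited, with the build not established. Exon and untranslated region were not analysed here.

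Tables were joined on transcript, exact position and motif with pandas 2.3.3 (Python 3.11.15). Sites needed 20 reads. Positions without a gene name (601) were left out of the comparison with other genes. No member lies in the deposited tables whose names say minus. Medians per replicate are given as mean ± SD, with an exact paired permutation test over replicates. Named are, per complex, shared sites with 50 reads or more in each replicate, the highest and lowest, those on transcripts with several, and the 5 largest differences between replicates; the 6 shared sites outside this rule (in Ndufa8, Ndufs1, Ndufb2, Atp5j, Atp5a1 and Atp5g1), sites in 1 library and genes below the minimum were named after their values were seen, as were the 8 printed motifs. The sites of 1 member gene are counted but not reported here. The members and lists were chosen with earlier results of these data known. The functions were tested on simulated data.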

Additional observations from a re-analysis of the deposited data

How the results depend on the processing

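Counts of member sites and genes stayed within 1.5 times under every alternative run, and the differences from other genes kept their sign in the mean of both replicates at every motif but GGACC. The GGACC difference reversed, to 0.0211 with means and to 0.0801 on transcripts whose last listed position was under 1000 nt; the latter limit, the minimum of 100 reads, 1 value per gene and the placing of Ndufa4 were chosen after seeing the data. With a minimum of 50 reads the medians became 0.894 at GGACA, 0.512 at AGACT, 0.140 at GGACC, 0.633 in complex I (above the 0.554 of complex V) and 0.541 in complex II, and no assembly factor site remained. Without the minimum they became 0.242 at GGACT, 0.206 in complex IV and 0.229 for assembly factors, and other genes had 15.7% high sites. With 1 transcript per gene they were 0.844 at GGACA and 0.289 at GGACT. With subunit genes only they were 0.853 at GGACA, 0.512 at AGACT, 0.189 at GGACC and 0.0883 in complex IV. With all members kept and Ndufa4 counted in complex I, the median of complex IV was 0.413, against 0.277 with Ndufa4 in it. With all sites of each replicate the medians were 0.849 at GGACA, 0.288 at AGACT and 0.251 at GGACT. With means they were 0.716 at GGACA, 0.392 at GGACT and 0.321 at GGACC. A limit of 0.9 left 17.7% of member sites and 9.28% of other genes' sites as high. The cause of these shifts was not tested, except that a higher limit and fewer genes or sites change them by construction. Leaving out a replicate gave differences from 0.170 to 0.206 at GGACA, 0.126 to 0.151 at AGACT, 0.0181 to 0.0190 at GGACT and -0.0415 to -0.0286 at GGACC, and medians from 0.0742 to 0.157 in complex III, 0.455 to 0.551 in complex I and 0.552 to 0.620 in complex V, and with n = 2 it says nothing about stability. No paired analysis was possible because the samples form 1 group, so there were no groups to pair by replicate number; the exact test pairs members with other genes within a library. Depth limits single sites: the replicates differed with an SD of 0.102 at 24 member sites whose lower coverage was 20 to 49 reads.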
